A study of Mus musculus with 9 samples.

Results

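The genes described here are 32 mononuclear phagocyte genes, that is, genes known as markers or working parts of macrophages and dendritic cells, picked by name with earlier results of these data known. All 32 matched exactly 1 of the 54491 rows of the deposited table of mouse colon RNA, and 31 of them passed the filter on low values, at least 0.5 FPKM (fragments scaled by transcript length and library size) in at least 3 of the 9 libraries. Siglech, a lectin of plasmacytoid dendritic cells, did not pass. Flt3 passed only through the libraries of high-fat diet alone, and Timd4 would not have passed without them.

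The study divided 45 C57BL/6 mice, 6 weeks old at the start, into 3 groups of 15. Mice of the first group were controls, those of the second ate a high-fat diet (HFD), and those of the third ate that diet and received Papillibacter cinnamivorans, a gut bacterium, by gavage (a liquid placed in the stomach through a tube). Colon RNA taken at postnatal day 98 is held in 3 libraries of each group. These are control replicates 1, 2 and 3, HFD replicates 1, 2 and 4, and replicates 1, 3 and 4 of HFD with the bacterium. The labels give no genetic change in any group, do not name the control diet or the stretch of colon, and do not say that each library is a separate mouse, so p-values measure only the spread between libraries.

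Macrophages of the colon wall arise largely from blood monocytes that mature under colony stimulating factor signals, take up bacteria and dying cells, and digest them in lysosomes. Dendritic cells carry antigen to lymphoid tissue and depend on the growth factor receptor Flt3 and on transcription factors such as Irf8 and Batf3. Both cell types use complement, Fc receptors and lectins to recognise what they take up.

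The HFD libraries stood apart from the other 6 in genes that the list does not include. The 7 posterior Hox genes, which mark position along the gut, summed to 263 to 283 FPKM in HFD, 7.79 to 46.3 in control and 17.7 to 19.8 in HFD with the bacterium. Hoxd13 alone measured 86.0, 94.3 and 72.6 FPKM in HFD and at most 0.45 FPKM in the other libraries. Every HFD library has this profile and no other library has it. Whatever sets the Hox levels therefore cannot be told apart from diet in HFD against control. Nor can it be told apart from the gavage in HFD with the bacterium against HFD. The comparison of HFD with the bacterium against control is the only one without these libraries, although they enter its estimate of the spread. Control replicate 1 also stood apart, with a summed smooth muscle level of 4533 FPKM that marks the top of a control range starting at 907 FPKM, and values without it are given for the 3 members whose call they change, Fcer1g, Mertk and C1qa. The fragments behind the FPKM values were recovered, as whole numbers for 98.6% of values, and summed to 14684350 to 17179475 per library. Those of the members ranged from 1 fragment of Siglech to 10271 of Ctss.

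Most of the mononuclear phagocyte genes were higher in HFD colon than in both other groups. Against control, 20 of the 31 tested members rose and 0 fell, where 10.6% of all 17907 tested genes rose, 9.11% fell and 19.7% thus did either (limma, adjusted p below 0.05). In HFD with the bacterium against HFD, 21 fell and 0 rose, where 7.6% of all genes fell and 4.54% rose. The median log2 difference over the tested members was 1.07 in the first comparison and -0.902 in the second, and over all tested genes it was -0.00107 and -0.0138. With values rescaled to the same sum in every library (TPM scaling), 78.2% of the calls between HFD and control were rises rather than 53.8%, the median of all genes was 0.24, and 23 members rose and 0 fell. That scaling put the second comparison at 25.3% rises rather than 37.4%, with a median of all genes of -0.2, and 22 members fell. Relative to those medians the members' median was 1.16 and -0.995. Scaling without mitochondrial and immunoglobulin genes gave 76.5% rises, a median of all genes of 0.166 and 22 members that rose in the first comparison. The 2 comparisons share the HFD libraries, so the direction of the second is not independent of the first. Every HFD library lay above every control library for 24 members, against a background of 21.9% of all genes. Every library of HFD with the bacterium lay below every HFD library for 25 members, against 20.3%. Together the 32 genes took 0.308% to 0.374% of the summed FPKM in HFD, 0.126% to 0.145% in control and 0.106% to 0.149% in HFD with the bacterium. Mitochondrially encoded genes took 9.69% to 13.5% in HFD, 16.6% to 25.2% in control and 21.6% to 34.8% with the bacterium, and immunoglobulin genes 7.36% to 10.9%, 0.469% to 1.33% and 0.676% to 2.68%. In whole tissue, fewer cells of a type and less RNA per cell cannot be told apart.

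**Figure D1:**
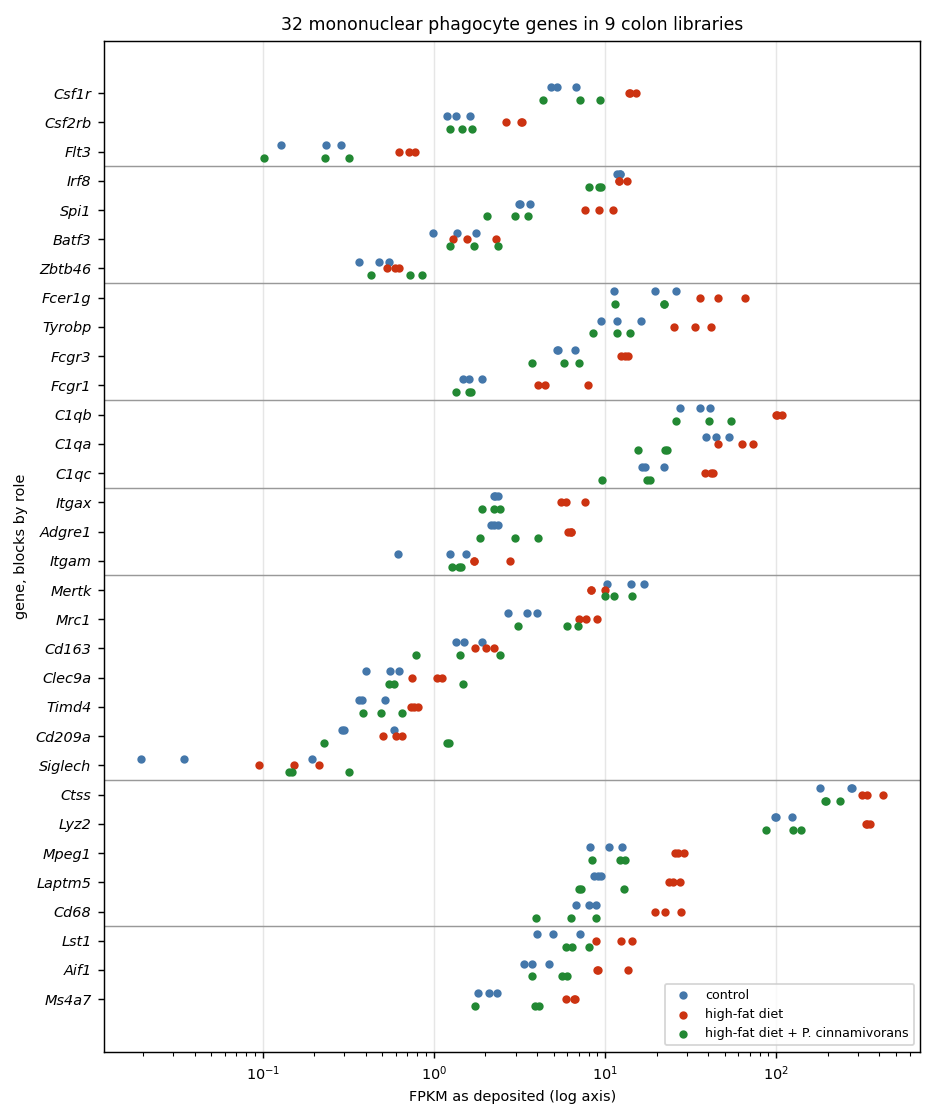
Level of each of the 32 genes in every library, in FPKM on a log axis, with genes in blocks by role and 1 point per library coloured by group. The HFD points lie to the right of the control points for most genes. Mertk lies on the opposite side, and Irf8, Cd163, C1qa, Cd209a, Zbtb46, Batf3 and Siglech overlap.

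Growth factor receptors were the first group. Csf1r, the receptor for the macrophage growth factors Csf1 and Il34, measured 5.26, 6.75 and 4.80 FPKM in control, 15.2, 14.1 and 13.8 in HFD, and 4.36, 7.10 and 9.36 in HFD with the bacterium. All 3 HFD libraries were above the other 6, while the other groups overlapped. The log2 difference, on the log2(FPKM + 1) scale used throughout for tests, was 1.23 (SE 0.23, limma adjusted p = 0.0068) for HFD against control and -1 (SE 0.23, limma adjusted p = 0.022) for HFD with the bacterium against HFD. Csf2rb, the signalling chain shared by the receptors for GM-CSF, interleukin 3 and interleukin 5, went from 1.39 ± 0.22 FPKM in control to 3.03 ± 0.353 in HFD and 1.46 ± 0.21 in HFD with the bacterium (SD, n = 3 each), and both differences passed the test. Its coding sequence is 95.2% identical to that of Csf2rb2, with an identical run of 242 bases, so fragments may be divided between them and the values of both are uncertain. Flt3 measured 0.216 ± 0.0804, 0.703 ± 0.0777 and 0.218 ± 0.11 FPKM (SD, n = 3 each) in control, HFD and HFD with the bacterium, from 11 to 86 fragments per library. Both differences of Flt3 passed (limma adjusted p = 0.031 and 0.043), but it had to be high in HFD to be tested at all.

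The partners of these receptors moved less uniformly. Of the 7 genes of the growth factor axis beyond the members, 6 were tested, 2 rose in HFD and 1 fell in HFD with the bacterium. Il34 was at 2.64, 2.59 and 2.09 FPKM in control, 4.41, 6.35 and 5.51 in HFD and 1.83, 2.76 and 3.08 in HFD with the bacterium, with HFD above both other groups (limma adjusted p = 0.0089 and 0.013). Csf1, the other ligand of Csf1r, averaged 2.84 ± 1.06, 5.26 ± 0.49 and 3.39 ± 1.18 FPKM (SD, n = 3 each) and did not pass in either comparison (limma adjusted p = 0.062 and 0.19). Flt3l, the ligand of Flt3, was at 1.98 ± 0.513, 2.22 ± 0.178 and 2.79 ± 0.311 FPKM (SD, n = 3 each), and Csf2ra, the binding chain for GM-CSF, at 12.2 ± 2.33, 11.0 ± 1.35 and 13 ± 3.22 FPKM, neither with a call.

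The 4 transcription factors split. Spi1, which encodes PU.1, a master regulator of the myeloid lineage, measured 3.16, 3.65 and 3.14 FPKM in control, 9.26, 11.1 and 7.67 in HFD and 2.04, 2.98 and 3.55 in HFD with the bacterium. The HFD libraries stood clear of the rest, and both differences passed (1.25, SE 0.18, limma adjusted p = 0.002, and -1.43, SE 0.18, limma adjusted p = 0.0013). Irf8, needed for monocytes and for the dendritic cells that cross-present antigen, was nearly level between control and HFD, at 12.2, 12.2 and 11.7 against 12.1, 13.4 and 12 FPKM. In HFD with the bacterium it measured 9.48, 9.18 and 8 FPKM, below all 6 other libraries. The fall from HFD was -0.45 (SE 0.11, limma adjusted p = 0.026), and the difference between HFD and control was 0.05 (95% interval -0.19 to 0.29). Irf8 is also made by B cells, whose marker genes are given with the other cell types. Batf3, a partner of Irf8 in dendritic cells with 24 to 66 fragments per library, and Zbtb46, a factor of classical dendritic cells, had overlapping groups in both comparisons and no call, with means of 1.38 to 1.77 and 0.464 to 0.670 FPKM.

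All 4 members that signal through an immunoreceptor tyrosine-based activation motif (ITAM) or bind IgG rose in HFD, and all 4 fell in HFD with the bacterium. Fcer1g and Tyrobp encode the adaptors, small membrane proteins whose ITAM is phosphorylated when a receptor is engaged. The motif pairs a tyrosine and a leucine with a second such pair, and its coding stretch is shown because both adaptors moved together. In the coding bases below (GENCODE M21, bases 193 to 237 of Fcer1g on chromosome 1 and 274 to 318 of Tyrobp on chromosome 7), capitals mark the codons for those tyrosines and leucines.
Fcer1g: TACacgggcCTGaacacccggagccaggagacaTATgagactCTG
Tyrobp: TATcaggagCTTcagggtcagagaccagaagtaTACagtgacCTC

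Tyrobp, the DAP12 adaptor, measured 9.52, 16.1 and 11.8 FPKM in control, 33.7, 41.4 and 25.3 in HFD and 8.47, 14.0 and 11.7 in HFD with the bacterium. The HFD range did not touch the others (1.36, SE 0.25, limma adjusted p = 0.0068, and -1.47, SE 0.25, limma adjusted p = 0.0059). Fcer1g, the common gamma chain of Fc receptors, varied more within groups, with 11.2, 26.0 and 19.5 FPKM in control, 45.9, 65.9 and 35.9 in HFD and 11.4, 22 and 21.9 in HFD with the bacterium. Its calls were the closest to the threshold in this role (limma adjusted p = 0.029 and 0.038), and the rise did not pass without control replicate 1, the lowest control library (1.05, limma adjusted p = 0.053). Fcgr1, the high-affinity IgG receptor, measured 1.48, 1.91 and 1.61 FPKM in control, 4.47, 7.95 and 4.04 in HFD and 1.35, 1.65 and 1.60 in HFD with the bacterium. HFD replicate 2 was the highest library for all 4 genes. Fcgr3, a low-affinity IgG receptor, averaged 5.73 ± 0.798, 13 ± 0.626 and 5.51 ± 1.65 FPKM (SD, n = 3 each). It is 83.9% identical in coding sequence to the inhibitory receptor Fcgr2b, with an identical run of 129 bases, so the split between them is uncertain.

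Genes that act beside these receptors were counted next. Of 13 further genes of phagocyte receptor signalling, 12 were tested, 10 rose in HFD and 9 fell in HFD with the bacterium. Fcgr4, another activating IgG receptor, averaged 2.71 ± 1.02, 11.1 ± 5.3 and 3.37 ± 0.381 FPKM (SD, n = 3 each), and the Src-family kinase Lyn 6.74 ± 1.16, 14.9 ± 0.498 and 6.84 ± 0.798 FPKM. Ptpn6, a phosphatase that dampens such signals, rose and fell as well, from 11.1 ± 3.42 to 21.7 ± 2.92 and 9.32 ± 1.46 FPKM (SD, n = 3 each; limma adjusted p = 0.021 and 0.012). Syk, the kinase that docks on phosphorylated ITAMs, was at 6.69 ± 1.69, 7.78 ± 0.636 and 5.54 ± 1.16 FPKM with no call in either comparison. Lyn, Ptpn6 and Syk are used by B cells too.

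Among the integrins and adhesion receptors, Itgax and Adgre1 passed in both comparisons and Itgam in neither. Itgax, the CD11c integrin chain of dendritic cells and gut macrophages, measured 2.38, 2.27 and 2.26 FPKM in control, 5.88, 7.63 and 5.50 in HFD and 1.92, 2.42 and 2.25 in HFD with the bacterium. Control and HFD with the bacterium were nearly level, and HFD was 2.76 times control by the ratio of means (1.14, SE 0.13, limma adjusted p = 0.00075). Adgre1, the F4/80 antigen of macrophages, averaged 2.25 ± 0.119, 6.22 ± 0.15 and 2.97 ± 1.10 FPKM (SD, n = 3 each; limma adjusted p = 0.0039 and 0.015). Itgam, the CD11b chain, measured 0.62, 1.54 and 1.24 FPKM in control, 1.72, 2.77 and 1.71 in HFD and 1.27, 1.41 and 1.44 in HFD with the bacterium. Its HFD libraries were the 3 highest, but the difference from control did not pass (0.53, SE 0.20, limma adjusted p = 0.09).

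The 3 chains of complement C1q, which assemble in equal numbers into the molecule that starts the classical pathway, did not move alike. C1qb measured 35.8, 40.9 and 27.3 FPKM in control, 99.1, 107 and 101 in HFD and 25.8, 40.3 and 54.2 in HFD with the bacterium. C1qc measured 17.1, 22 and 16.4, then 41.6, 42.5 and 38.5, then 9.63, 17.5 and 18.3 FPKM. For both genes the HFD libraries lay above the other 6, and both rose and fell (C1qb 1.55 and -1.39, limma adjusted p = 0.0039 and 0.0083; C1qc 1.11 and -1.42, limma adjusted p = 0.011 and 0.0043). C1qa measured 44.3, 52.7 and 39.1 FPKM in control, 62.8, 73.5 and 45.4 in HFD and 15.6, 22.9 and 22.3 in HFD with the bacterium. HFD replicate 4 fell inside the control range, and the rise did not pass (0.39, SE 0.22, limma adjusted p = 0.23). The fall of C1qa to HFD with the bacterium did (-1.53, SE 0.22, limma adjusted p = 0.0025).

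The ratio of C1qa to C1qb within a library separated both high-fat diet groups from control. It was 1.24, 1.29 and 1.43 in control, 0.634, 0.685 and 0.452 in HFD and 0.602, 0.569 and 0.411 in HFD with the bacterium. Every library of both diet groups was below every control library, and the diet groups overlapped. The ratio of C1qc to C1qb was 0.477 to 0.601 in control, 0.383 to 0.420 in HFD and 0.338 to 0.435 in HFD with the bacterium, again with both diet groups below control. These ratios were singled out after the values had been seen, and are given without a test. C1qa, C1qb and C1qc lie on chromosome 4.

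**Figure D2:**
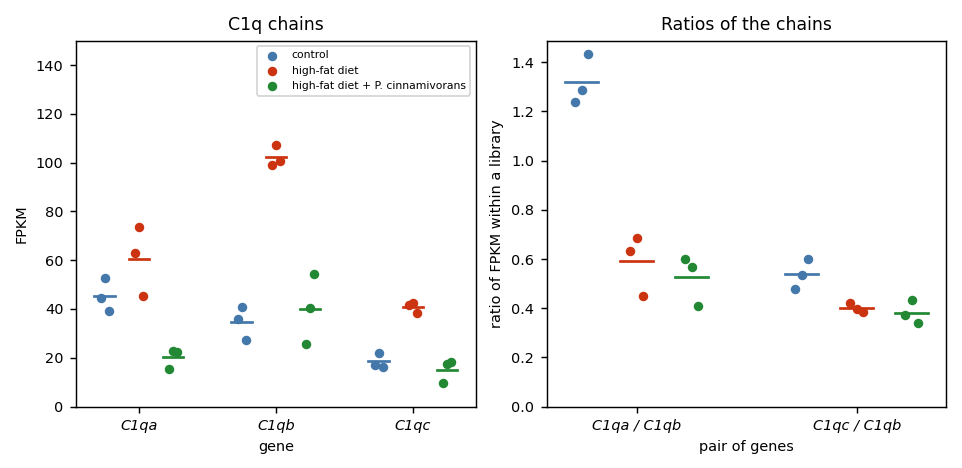
Left, FPKM of the 3 C1q chains in each library; right, ratios of C1qa and C1qc to C1qb within each library, with points for libraries, lines for group means and colours for groups. C1qb reaches 99.1 to 107 FPKM in HFD, whereas the ratio of C1qa to C1qb is at least 1.24 in control and at most 0.685 in both high-fat diet groups.

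Promoters were examined for 2 motifs bound by factors on the list, because members moved together with Spi1. RefSeq promoter windows of 300 bases (250 before the start site and 50 after it, GRCm38.p6) were at hand for 25 of the 32 members. The PU.1 core GAGGAAGT, on either strand, was in 2 of them, C1qc and Ctss, and in 3.2% of all 32851 promoters. The ETS-IRF composite element, where an ETS factor and an interferon regulatory factor can bind together, was in 3, namely Cd68 (at position 24 from the start site), Timd4 (-72) and Cd209a (-9), and in 2.72% of all promoters. Both motifs contain the letters GGAA. A match describes letters and does not show binding. The 2 windows with the PU.1 core are shown in part, 5′ to 3′ along the gene, with capitals for the motif, which is on the opposite strand in both and starts at position -195 in C1qc and -2 in Ctss. The C1qc stretch is chr4:136893065-136893164 (minus strand) and the Ctss stretch chr3:95526636-95526791 (plus strand).
C1qc: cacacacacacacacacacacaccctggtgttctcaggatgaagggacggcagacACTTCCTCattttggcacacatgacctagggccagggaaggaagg
Ctss: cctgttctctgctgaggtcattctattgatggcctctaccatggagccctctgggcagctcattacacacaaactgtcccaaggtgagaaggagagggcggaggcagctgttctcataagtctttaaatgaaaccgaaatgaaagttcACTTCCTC

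Scavenger, lectin and dead cell receptors were the role with the fewest changes. Of its 7 members 6 were tested, 1 rose in HFD and 0 fell in HFD with the bacterium. Mrc1, the mannose receptor, was the one that rose, from 3.49, 3.99 and 2.71 FPKM in control to 8.91, 7.08 and 7.76 in HFD (1.03, SE 0.24, limma adjusted p = 0.018). In HFD with the bacterium Mrc1 measured 3.10, 5.99 and 6.90 FPKM, below HFD in every library but without a call (-0.54, SE 0.24, limma adjusted p = 0.18). Cd163, which clears haemoglobin, measured 1.51, 1.90 and 1.34 FPKM in control, 2.01, 1.75 and 2.25 in HFD and 0.786, 1.43 and 2.43 in HFD with the bacterium. The 3 groups of Cd163 overlapped.

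Mertk, a receptor for dying cells, was the only member lower in every HFD library than in every control library, as were 20.1% of all genes. It measured 10.3, 14.2 and 16.8 FPKM in control, 9.97, 8.28 and 8.27 in HFD and 11.3, 10 and 14.3 in HFD with the bacterium. The difference between HFD and control was -0.56 (SE 0.19) and did not pass with all 9 libraries (limma adjusted p = 0.07). Without control replicate 1, the lowest of the control libraries, it was -0.74 and passed (limma adjusted p = 0.013). Calls over all genes, in either direction, also went up in that setting, from 3535 to 4527. Relative to Cd68 in the same library, Mertk was at 1.28 to 2.47 in control, 0.362 to 0.424 in HFD and 1.58 to 2.88 in HFD with the bacterium. Its ligand Gas6 averaged 129 ± 18.3, 166 ± 7.15 and 94.4 ± 6.83 FPKM (SD, n = 3 each), with a call only for the fall from HFD (limma adjusted p = 0.0071).

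The remaining receptors were near the limit of detection. Timd4, a phosphatidylserine receptor of resident macrophages, had 12 to 17 fragments per control library, 28 to 33 per HFD library and 14 to 25 with the bacterium. Its HFD libraries were the 3 highest, with no call (limma adjusted p = 0.1). Clec9a, which senses actin of dead cells on cross-presenting dendritic cells, had 20 to 31, 43 to 66 and 25 to 86 fragments, and the DC-SIGN relative Cd209a had 7 to 14, 15 to 18 and 6 to 33. Neither was called. Siglech had 1 to 10, 6 to 13 and 7 to 19 fragments and was not tested. At these counts a missing call does not show that the levels were equal.

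Of 12 further genes of dead cell clearance and complement, all tested, 6 rose in HFD and 5 fell in HFD with the bacterium. Mfge8, which bridges dying cells to phagocytes, averaged 17.3 ± 5.67, 34.5 ± 2.05 and 13.5 ± 1.17 FPKM (SD, n = 3 each) and passed in both comparisons (limma adjusted p = 0.01 and 0.004). C3, the central complement protein, ranged from 6.27 to 63.9 FPKM within HFD with the bacterium and had no call.

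On the log2(FPKM + 1) scale the lysosomal and effector proteins held the largest rise and the largest fall among the members. Lyz2, the lysozyme of macrophages and neutrophils, measured 97.8, 123 and 99.3 FPKM in control, 351, 338 and 335 in HFD and 87.4, 140 and 125 in HFD with the bacterium. The HFD libraries were close to each other and 3.20 times control by the ratio of means (1.68, SE 0.19, limma adjusted p = 0.00068), and Lyz2 fell to near control with the bacterium (-1.56, SE 0.19, limma adjusted p = 0.0012). Cd68, a glycoprotein of late endosomes, measured 8.05, 8.82 and 6.78 FPKM in control, 27.6, 22.4 and 19.5 in HFD and 3.93, 6.35 and 8.87 in HFD with the bacterium. HFD was 3.62 times the mean of HFD with the bacterium, which was the largest fall on the log2 scale among the members (-1.75, SE 0.24, limma adjusted p = 0.0023).

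Lyz2 has a close copy, Lyz1, the lysozyme of Paneth cells, and part of both coding sequences is shown because the measured level of Lyz2 rests on telling them apart. The copies are 95% identical over 444 coding bases, with a longest identical run of 118. In coding bases 1 to 120 (GENCODE M21, chromosome 10) capitals mark the positions at which they differ.
Lyz2: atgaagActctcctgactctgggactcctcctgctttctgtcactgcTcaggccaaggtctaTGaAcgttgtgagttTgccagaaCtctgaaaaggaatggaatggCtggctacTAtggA
Lyz1: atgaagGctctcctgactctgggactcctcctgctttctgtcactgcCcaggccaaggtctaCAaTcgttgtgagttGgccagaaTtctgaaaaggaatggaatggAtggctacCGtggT

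Lyz1 was listed at 0.838, 5.96 and 1.94 FPKM in control, 7.77, 9.40 and 7.19 in HFD and 2.04, 2.14 and 2.66 in HFD with the bacterium. Lyz2 was 20.6 to 117 times Lyz1 in every library. Reads of Lyz2 placed on Lyz1 would raise Lyz1 in the same libraries, and their part in the Lyz1 values was not tested.

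Mpeg1, the pore-forming perforin-2, measured 8.15, 12.6 and 10.5 FPKM in control, 26.6, 28.9 and 25.7 in HFD and 8.34, 12.2 and 13.1 in HFD with the bacterium. Laptm5, a lysosomal membrane protein of blood cells, measured 9.50, 8.66 and 9.10, then 27.3, 24.8 and 23.7, then 7.03, 12.9 and 7.27 FPKM. In both genes the HFD libraries stood clear of the rest and both differences passed (limma adjusted p = 0.0042 or less). Ctss, the cathepsin that trims the invariant chain for antigen presentation and the most abundant member, measured 180, 274 and 276 FPKM in control, 340, 422 and 315 in HFD and 236, 195 and 193 in HFD with the bacterium. Its rise did not pass (0.57, SE 0.21, limma adjusted p = 0.09) and its fall did (-0.78, SE 0.21, limma adjusted p = 0.046).

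Further genes of the lysosome and of the phagocyte oxidase were measured beside these. Cybb, the catalytic chain that makes superoxide, rose in HFD and fell with the bacterium, and averaged 2.69 ± 0.449, 9.79 ± 0.601 and 3.08 ± 0.804 FPKM (SD, n = 3 each; limma adjusted p = 0.00049 and 0.00093). Lamp1 and the protease gene Ctsb, present in most cell types, had no call, at 181 ± 66.3, 164 ± 6.42 and 158 ± 21.6 FPKM and 118 ± 23.0, 146 ± 4.86 and 135 ± 7.36 FPKM. Ctsz was at 107 ± 4.30 and 98.0 ± 13.7 FPKM in control and HFD and fell to 55.3 ± 4.80 in HFD with the bacterium, below both (SD, n = 3 each; limma adjusted p = 0.0064 against HFD and 0.037 against control).

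The last 3 members are markers with less settled roles. Aif1, the actin-binding Iba1 antigen, measured 3.38, 4.69 and 3.75 FPKM in control, 8.95, 13.7 and 9.13 in HFD and 5.60, 3.72 and 5.98 in HFD with the bacterium, with HFD above the rest (limma adjusted p = 0.0049 and 0.022). Ms4a7, a membrane protein of macrophages, averaged 2.09 ± 0.268, 6.39 ± 0.426 and 3.24 ± 1.31 FPKM (SD, n = 3 each; limma adjusted p = 0.0058 and 0.041). Lst1 averaged 5.36 ± 1.62, 11.9 ± 2.83 and 6.80 ± 1.14 FPKM (SD, n = 3 each). It rose in HFD (limma adjusted p = 0.015), and its fall did not pass (limma adjusted p = 0.078).

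**Figure D3:**
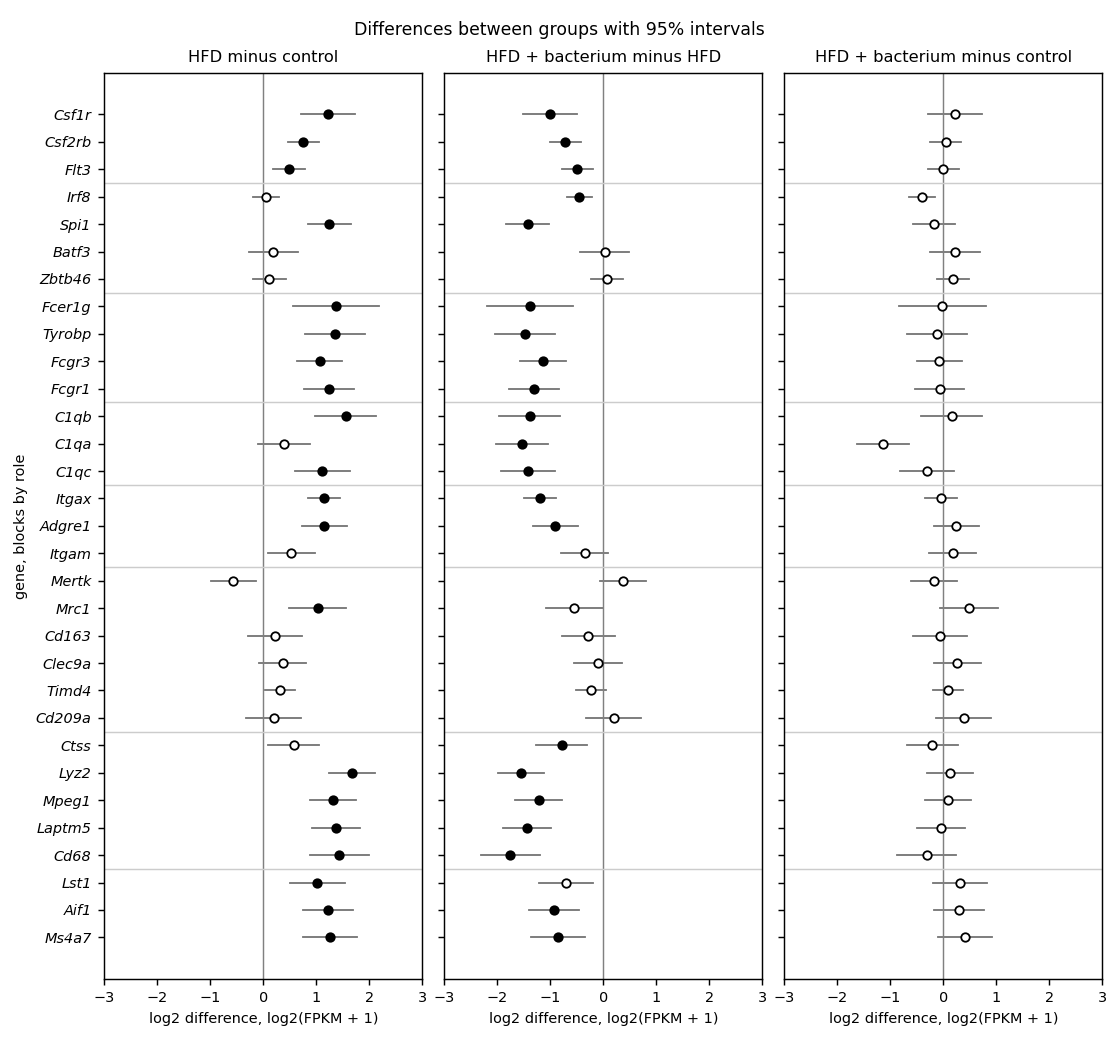
Difference of each tested member on the log2(FPKM + 1) scale with its 95% interval from the limma fit, for each comparison, with filled points for calls at an adjusted p below 0.05. The 20 rises and 21 falls lie on opposite sides of 0, and the comparison of HFD with the bacterium against control has no filled point.

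Other genes of these cells were counted from further lists. Of 7 genes of monocyte recruitment, all tested, 6 rose in HFD and 5 fell in HFD with the bacterium. Ccr2, which draws monocytes out of the marrow, measured 1.08, 1.56 and 1.11 FPKM in control, 3.44, 5.32 and 3.51 in HFD and 2.08, 2.31 and 2.53 in HFD with the bacterium, so that the last group lay between the others without overlap (limma adjusted p = 0.002 and 0.046; 0.12 against control). Cx3cr1, a receptor kept by gut macrophages, averaged 2.77 ± 0.812, 7.23 ± 0.765 and 3.17 ± 1 FPKM (SD, n = 3 each; limma adjusted p = 0.0074 and 0.017). The chemokine Ccl7 averaged 2 ± 1, 33.8 ± 20.3 and 4.33 ± 1.32 FPKM, and Ccl8 21.7 ± 6.52, 73.1 ± 30.9 and 17.6 ± 7.83 FPKM. Cx3cl1, the ligand of Cx3cr1, had no call, at 23.1 ± 3.31, 22.5 ± 4.91 and 17.1 ± 3.14 FPKM.

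Of 15 further macrophage genes 12 were tested, 5 rose in HFD and 4 fell in HFD with the bacterium. Cd14, which binds bacterial lipopolysaccharide, was at 19.4 ± 2.68, 59.6 ± 5.21 and 19.4 ± 1.92 FPKM (SD, n = 3 each; limma adjusted p = 0.00019 and 0.00023). Lyve1, a gene of perivascular macrophages and of lymphatic vessels, rose (limma adjusted p = 0.018), and its fall did not pass (limma adjusted p = 0.052). The iron exporter Slc40a1, at 4.29 to 31.1 FPKM in control, had no call. Of 15 further dendritic cell genes 14 were tested, 5 rose (Irf4, Ccr7, Ccl22, Sirpa and Cd83) and 5 fell (Irf4, Ccr7, Sirpa, Bst2 and Cd83). Ccl22 reached 0.5 FPKM in 3 HFD libraries, 1 with the bacterium and 0 control libraries, so it was tested only through HFD. Bst2, found on plasmacytoid dendritic cells and induced by interferon in many cells, averaged 71.5 ± 4.02, 120 ± 42.5 and 49.6 ± 14.7 FPKM (SD, n = 3 each). Id2 and Tlr3 had no call in these 2 comparisons.

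HFD with the bacterium was then set against control, the comparison without the HFD libraries. No member was called by limma, where 1.11% of all genes were (0.262% higher and 0.843% lower). Of the 31 tested members, 2 had an unadjusted limma p below 0.05, C1qa and Irf8. The share of all genes below that unadjusted level was not counted. The median log2 difference over members was 0.0423, with a range from -1.14 for C1qa to 0.48 for Mrc1. C1qa and Irf8 were also the only members that were lower in every library of HFD with the bacterium, as were 11.9% of all genes, and 0 members were higher in every library, where 9.86% of all genes were. C1qa averaged 20.2 ± 4.08 FPKM against 45.4 ± 6.88 in control (SD, n = 3 each; -1.14, SE 0.22, limma adjusted p = 0.051), and Irf8 8.89 ± 0.782 against 12 ± 0.294 FPKM (-0.40, SE 0.11, limma adjusted p = 0.091). C1qa passed without control replicate 1 (limma adjusted p = 0.038). In that setting the calls over all genes went from 198 to 1187, with C1qa the only member among them. On recovered fragments voom called 194 genes, and C1qa was the only member among those too (limma voom adjusted p = 0.047). For members without a call the intervals were wide: that of Lyz2 ran from -0.31 to 0.55 and that of Fcer1g from -0.83 to 0.80, so the levels are not shown to be equal. Rises made up 23.7% of the 198 calls over all genes and 76.8% after scaling without mitochondrial and immunoglobulin genes, with 0 members called in both.

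Genes of leukocytes in general were measured beside the members. All 9 pan-leukocyte genes rose in HFD and all 9 fell in HFD with the bacterium, with medians of 1.85 and -1.42. Ptprc, the CD45 antigen of all leukocytes, B cells included, measured 1.41, 1.88 and 1.62 FPKM in control, 7.71, 7.66 and 8.23 in HFD and 2.89, 3.52 and 3.84 in HFD with the bacterium. Ptprc was also higher in HFD with the bacterium than in control (0.74, SE 0.12, limma adjusted p = 0.037). Divided by Ptprc in the same library, all 32 members had a lower mean log2 ratio in HFD than in control, with differences from -2.89 for Mertk to -0.50 for Flt3. For 28 members every HFD library was below every control library, as for 91% of all tested genes, and for 0 every library was above (1.09% of genes). Each of these 28 has an exact two-sided permutation p of 0.1, the smallest that 3 against 3 libraries allow. With Itgb2, the shared beta chain of leukocyte integrins, in place of Ptprc the number was 16, where 84.8% of tested genes were lower.

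In HFD with the bacterium against HFD the ratios to Ptprc divided the members. For 8 members every library with the bacterium was higher, as for 78.4% of tested genes: Mertk, Irf8, Itgam, Timd4, Zbtb46, Batf3, Clec9a and the untested Siglech. For 4 members every library was lower, as for 2.6% of tested genes: Lyz2, Cd68, Fcgr1 and Spi1. Cd68 relative to Ptprc was at 3.58, 2.92 and 2.37 in HFD and 1.36, 1.80 and 2.31 in HFD with the bacterium, which is a narrow separation. Mertk relative to Ptprc went from 1.29, 1.08 and 1.01 to 3.92, 2.85 and 3.72. Against control, 24 members were lower in every library with the bacterium relative to Ptprc, as were 68.7% of tested genes, and 0 were higher (0.542% of genes). With Itgb2 as the reference in the comparison with HFD, 15 members were higher in every library with the bacterium, as were 85.1% of tested genes.

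**Figure D4:**
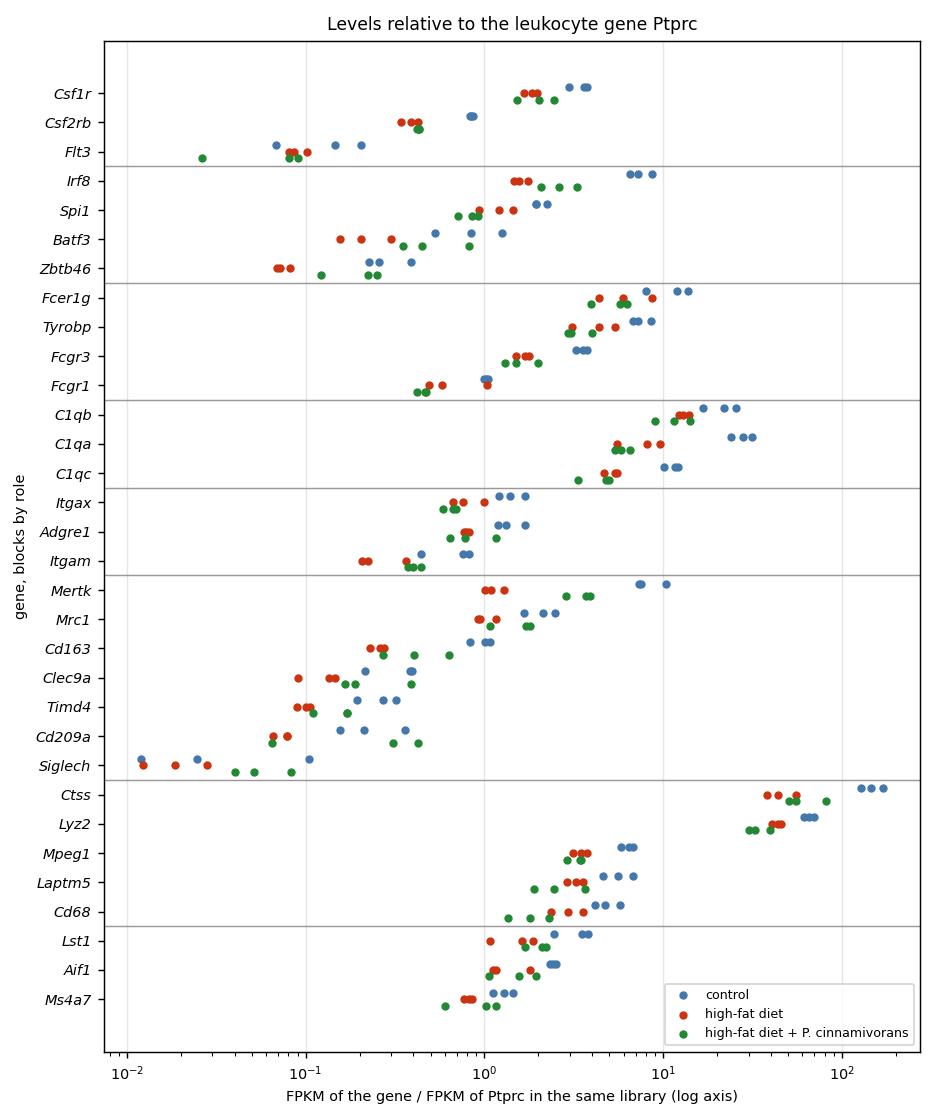
FPKM of each gene divided by FPKM of Ptprc in the same library, on a log axis, with 1 point per library coloured by group. Control points lie furthest to the right for most genes, and Mertk shows the widest gap, from 7.30 or more in control to 1.29 or less in HFD.

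Ratios between members showed where the phagocyte genes differed among themselves. Mrc1 relative to Cd68 was at 0.434, 0.452 and 0.399 in control, 0.323, 0.317 and 0.398 in HFD and 0.789, 0.944 and 0.778 in HFD with the bacterium, higher in the last group than in all 6 other libraries. Cd163 relative to Cd68 was at 0.187 to 0.215 in control, 0.0730 to 0.115 in HFD and 0.200 to 0.274 in HFD with the bacterium, so that HFD alone lay apart. Irf8 relative to Spi1 was at 3.35 to 3.85, 1.21 to 1.56 and 2.26 to 4.64. C1qb relative to Csf1r was at 5.67 to 6.81, 6.51 to 7.64 and 5.67 to 5.93, and control overlapped with each diet group. These pairs were chosen after the values had been seen and carry no test.

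Libraries of a group differed in level across many members at once. HFD replicate 2 was the highest of its group for 21 of the 32 members, against 32.8% of all tested genes, and HFD replicate 4 the lowest for 21, against 34.6%. Replicate 1 of HFD with the bacterium was the lowest of its group for 21 members, against 33.2%, and control replicate 2 the highest for 20, against 22.5%. The members are therefore not independent of each other within a group. Leaving out any HFD library reduced the falls in HFD with the bacterium from 21 members, to 14 without replicate 1, 13 without replicate 2 and 14 without replicate 4. Calls over all genes in that comparison, in either direction, dropped as well, from 2174 to 991, 1004 and 1202. The loss of calls is therefore not particular to the members.

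Markers of other cells were summed in the same libraries. All 9 B cell genes rose in HFD and fell in HFD with the bacterium. Of these, Cr2, Pax5 and Cxcr5 reached the filter level only in the HFD libraries, and Ms4a1 would not have passed without them. The sums over all 9 were 2.78 to 15.2 FPKM in control, 98.0 to 125 in HFD and 6.17 to 10.5 with the bacterium. All 4 genes of lymphoid follicle stroma did the same, with sums of 32.7 to 66.6, 166 to 196 and 38.7 to 97.7 FPKM. Of 9 T and NK cell genes 7 were tested, 5 rose and 2 fell, with sums of 17.3 to 34.4, 48.1 to 56.4 and 35.3 to 40.2 FPKM. Of 5 plasma cell genes 4 rose and 1 fell in HFD, with sums of 134 to 233, 851 to 1089 and 235 to 458 FPKM. Mzb1, among the 4 that rose, would not have passed the filter without the HFD libraries. Neutrophil genes, which share Lyz2, Itgam, Fcer1g and Tyrobp with macrophages, summed to 0.837 to 1.46, 1.91 to 4.25 and 0.595 to 2.47 FPKM over 10 genes. Of these 2 were tested, Retnlg was listed at 0 in every library, and Csf3r rose and fell. Of 5 smooth muscle genes none was called, with sums of 904 to 1050 FPKM in HFD and 1099 to 1855 with the bacterium. Of 6 epithelial genes 2 fell in HFD, with sums of 3334 to 5769, 2879 to 3316 and 2964 to 3796 FPKM. Enteric neuron and glia genes went the other way, with 2 of 6 lower in HFD and 3 higher with the bacterium, and sums of 30.0 to 81.4, 19.7 to 22.9 and 37.3 to 77.2 FPKM. Of 8 mast cell genes 4 were tested, and Cma1 rose and fell, from 0.141 to 12.3 and 0.0706 FPKM on average, having passed the filter only through HFD. The sums over all 8 were 12.1 to 19.0, 23.0 to 32.2 and 14.6 to 19.2 FPKM. Of 5 fibroblast genes 1 rose in HFD, with sums of 60.7 to 134, 159 to 160 and 109 to 158 FPKM. Of 5 endothelial genes 0 were called in HFD against control, and 1 rose and 1 fell with the bacterium, with sums of 12.9 to 20.2, 17.6 to 21.2 and 11.5 to 16.2 FPKM. Of 5 adipocyte genes 1 fell in HFD, with sums of 35.5 to 482, 5.67 to 64.2 and 48.2 to 142 FPKM. The part of these cells, of the Hox profile and of the mitochondrial and immunoglobulin shares in the members' levels was not tested.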

How the data were processed

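RNA of mouse colon was sequenced, and the authors deposited 1 table of FPKM values with 54491 rows and 9 libraries. HISAT2 2.0.5 and the build GRCm39 were used for alignment, per the submitters' processing notes. Which tool counted the reads is not given in the sources used here, nor is the annotation. The members and all gene lists were chosen with earlier results of these data known. Symbols came from GENCODE M21 (52093 identifiers matched).

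The test was limma 3.58.1 (R 4.3.3) with a mean-variance trend on log2(FPKM + 1), fitted to 17907 genes that reached 0.5 FPKM in 3 or more libraries. A single fit held the 9 libraries, without covariates. Benjamini-Hochberg adjustment ran over all genes tested within each comparison, and genes were called at an adjusted p below 0.05. The pseudocount of 1 understates the change of low genes. All 32 members are named; of each further list, the 3 genes with the highest mean FPKM and some fixed by name, and other genes where a small count is spelled out. The counts of the lysosome and oxidase list are not reported here because an item in it is left out of the text.

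FPKM times exonic length times 1 denominator per library gave whole fragments, within 0.03, for 98.6% of values. These denominators were 0.902 to 1.10 times the sum of recovered fragments, lowest in 2 control libraries and highest in HFD, for a reason that the labels do not state, and differed by up to 1.34 times between libraries. On these fragments limma voom, chosen after seeing the data, called 3569 genes for HFD against control, 2171 for HFD with the bacterium against HFD and 194 for HFD with the bacterium against control.

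Identity was computed between coding sequences of GENCODE M21, and promoter sequences are RefSeq's. The ETS-IRF element was searched on both strands. Alternatives were another pseudocount (0.1), no filter, TPM scaling, scaling without mitochondrial and immunoglobulin genes, quantile normalization, no trend, only the groups compared, a replicate block and each library left out.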

Additional observations from a re-analysis of the deposited data

How the results depend on the processing

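Among called members no difference changed sign under any alternative or with any library left out, and 16 of 20 rises in HFD and 12 of 21 falls in HFD with the bacterium were called under every alternative (16 and 13 with each library left out). The number of members that rose ranged from 17 to 23, and from 16 to 20 with 1 library left out; members that fell in HFD with the bacterium ranged from 13 to 21 with 1 library left out. Members called lower in HFD than in control ranged from 0 to 1 with a library left out, as did members lower in HFD with the bacterium than in control, where voom also called 1. Replicate numbers are shared by 2 libraries of each pair of groups, and deviations of same-numbered libraries correlated at -0.156 to 0.187. So few correlations, without differently numbered libraries beside them, cannot show whether the numbers pair the samples. With replicate number as a block 17 members rose and 13 fell, and over all genes 1985, 1288 and 0 were called in the 3 comparisons, against 3535, 2174 and 198. For HFD with the bacterium against control, all genes called were 15 with no filter, 6 with TPM scaling, 380 with scaling without mitochondrial and immunoglobulin genes, 46 with quantile normalization and 2 with only the groups compared. With 1 library left out, the calls over all genes ranged from 1612 to 4527, from 991 to 3603 and from 0 to 1187. With Itgb2 in place of Ptprc, 16 members (28 with Ptprc) were lower in every HFD library, as were 84.8% of tested genes. With Itgb2, 15 members (8 with Ptprc) were higher in every library with the bacterium, as were 85.1%. Leaving out 1 library with Ptprc gave 28 to 30 and 9 to 12. These counts could not fall, because groups that do not overlap stay apart with fewer libraries. They therefore do not show whether the result rests on 1 library.

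Uncalled differences near 0 changed sign, and the cause was not tested. In HFD with the bacterium against HFD, TPM scaling gave -0.0251 for Zbtb46 and -0.139 for Batf3, and leaving out 1 library gave ranges of -0.0107 to 0.177 for Zbtb46, -0.126 to 0.175 for Batf3 and -0.326 to 0.0176 for Clec9a. Against control, TPM scaling gave 0.0033 for Itgax, 0.0559 for Fcer1g, 0.0157 for Flt3 and 0.0119 for Laptm5. The replicate block gave 0.0258 for Itgax, 0.113 for Fcgr1, 0.199 for Fcer1g, 0.0836 for Tyrobp and 0.0175 for Flt3. Quantile normalization gave 0.139 for Fcer1g, 0.103 for Ctss and -0.0091 for Csf2rb, and voom gave 0.0279 for Fcer1g. Scaling without mitochondrial and immunoglobulin genes gave 0.104 for Itgax, 0.0686 for Cd163, 0.066 for Fcgr1, 0.114 for Fcgr3, 0.196 for Fcer1g, 0.089 for Tyrobp, 0.024 for Mertk, 0.0322 for Flt3, 0.0156 for Ctss and 0.147 for Laptm5. Leaving out 1 library gave -0.0198 to 0.318 for Lyz2, -0.0981 to 0.0163 for Itgax, -0.00661 to 0.317 for Itgam, -0.305 to 0.166 for Cd163, -0.0806 to 0.44 for C1qb, -0.24 to 0.137 for Fcgr3, -0.33 to 0.282 for Fcer1g, -0.281 to 0.0706 for Tyrobp, -0.0605 to 0.0705 for Flt3, -0.0178 to 0.113 for Csf2rb, -0.0594 to 0.273 for Mpeg1 and -0.307 to 0.087 for Laptm5. Depth limited Siglech, Cd209a, Timd4, Batf3, Flt3 and Clec9a, which rest on fewer than 100 fragments per library.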
